A study of Homo sapiens with 3 samples.

Results

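The genes of autophagy and of the lysosome were examined in arginine-deprived breast carcinoma cells. The list held 49 genes, taken by symbol from the platform annotation, of 20039 genes with a named probe. It comprised 20 genes of the autophagy machinery, 3 transcription factors, 14 lysosomal hydrolases, 2 lumenal cofactors, 5 lysosomal membrane proteins and 5 proton pump subunits. Total RNA of MDA-MB-231, an established human line of basal-type breast cancer that the series calls deficient in ASS1 (argininosuccinate synthase), was hybridised to 1-colour bead arrays. All cultures were grown in serum-supplemented medium. There were 3 arrays, 1 for each condition. One culture was left untreated for 48 h. One received ADI-PEG20, a pegylated arginine deiminase that breaks arginine down to citrulline and ammonia, at 0.3 µg/ml for 48 h. One received ADI-PEG20 at a labelled 0.3 (its unit is cut short) for 24 h and then L-arginine at 420 µg/ml for 24 h, and is called the arginine array below. This last culture had a shorter time in ADI-PEG20 than the second, so return of arginine and time in the enzyme cannot be told apart. No condition was replicated, so no difference could be set against a spread between cultures and none was tested.

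Autophagy encloses cytoplasm in a double membrane, the autophagosome, and delivers it to the lysosome, where acid hydrolases break it down to amino acids and other building blocks. A kinase complex starts the process, a lipid kinase complex marks the membrane, and a pair of ubiquitin-like conjugation systems attaches ATG8 proteins to it. Lysosomes are acidified by the vacuolar proton pump, and TFEB, TFE3 and MITF, related transcription factors restrained by mTORC1 when amino acids are plentiful, bind promoters of many lysosomal and autophagy genes.

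Each difference given below is of log2 background-corrected intensity, first-named array minus second, on the brightest probe of a gene. A probe counted as above background over an intensity of 163.1. On each array 38.1% of all probes did. The 3 deposited columns share 1 distribution, so an overall change in RNA per cell could not be seen, and in such bulk RNA fewer cells with a transcript and less of it per cell cannot be told apart. The 6 markers of the basal, mesenchymal-like state (among them VIM and CAV1) were above background on every array, and their intensities summed to 56469 (untreated), 46252 (ADI-PEG20) and 54660 (arginine). Of 6 genes listed as low or absent in the line, ESR1 and PGR, the hormone receptor genes, were above background on no array, GATA3 only under ADI-PEG20, and ERBB2, CDH1 and EPCAM on all 3. CDH1 (E-cadherin) was at 245.1, 373.8 and 292.7 and EPCAM, an epithelial adhesion gene, at 1009, 1484 and 1002, higher under ADI-PEG20, where 5 of the 6 basal markers, all but EGFR, were lower than untreated. The part of these differences in the results below was not tested. Of 6 leukocyte and macrophage markers CD14 was above background on all 3 arrays and CSF1R on the untreated and arginine arrays, while PTPRC, ITGAM, LYZ and CD163 were below on each. The summed intensity of those 6 was 1165, 1096 and 1178 on the untreated, ADI-PEG20 and arginine arrays. Of 3 endothelial markers only PECAM1 passed the limit, barely, at 166.8 (untreated) and 167.7 (ADI-PEG20). Of 4 fibroblast markers LUM was above background on all 3 arrays, at 291.9, 379.1 and 305.9, and COL1A1, COL3A1 and DCN on none.

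Of the 49 members, 46 were above background on every array. AMBRA1 was not above it on the untreated array, NBR1 only on the arginine array, and TFEB on no array. The members had 76 probes, 63 of them above background on all 3 arrays, and 19 members had more than 1 probe. A probe error was taken as the SD of the difference between 2 probes of a gene, divided by the square root of 2. It was 0.22 (2604 genes) for ADI-PEG20 minus untreated and 0.19 (2629 genes) for arginine minus untreated. It is the error of 1 probe, so a gap between 2 probes spreads wider, by the square root of 2. The probe error covers probes and not cultures.

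Most of the members were slightly higher under ADI-PEG20 than in untreated cells, and few by much. The median difference was 0.16 over the 47 members above background on either array, against -0.0029 over all 11138 such genes. It was 0.083 without background correction and 0.093 with no filter on dim probes. Of the 47, 32 were higher and 15 lower, where 49.7% and 50.3% of all genes were. Only TPP1 and NPC1 were at least 1.5-fold higher and only TFE3 at least 1.5-fold lower, against a background of 7.94% and 9.28% of all genes. These counts lie under the background, and passing 1.5-fold is no mark of these genes. LAMP2, at 0.56, lay just short of the limit of 0.58 and NPC1, at 0.60, just past it. No member differed by 2-fold, as 1.75% of all genes did upward and 2.11% downward. At lesser folds the upward count depends on the fold chosen: 18 members were at least 1.2-fold higher, beside 25.3% of all genes, but 12 at least 1.25-fold, beside 21.4%, since 6 members lay between those folds. Downward, 4 members passed either fold (TFE3, CTSZ, CTSB and ATP6V0D1), beside 25.8% and 21.8% of all genes. The members' differences had an SD of 0.30, against 0.46 over all genes.

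**Figure D1:**
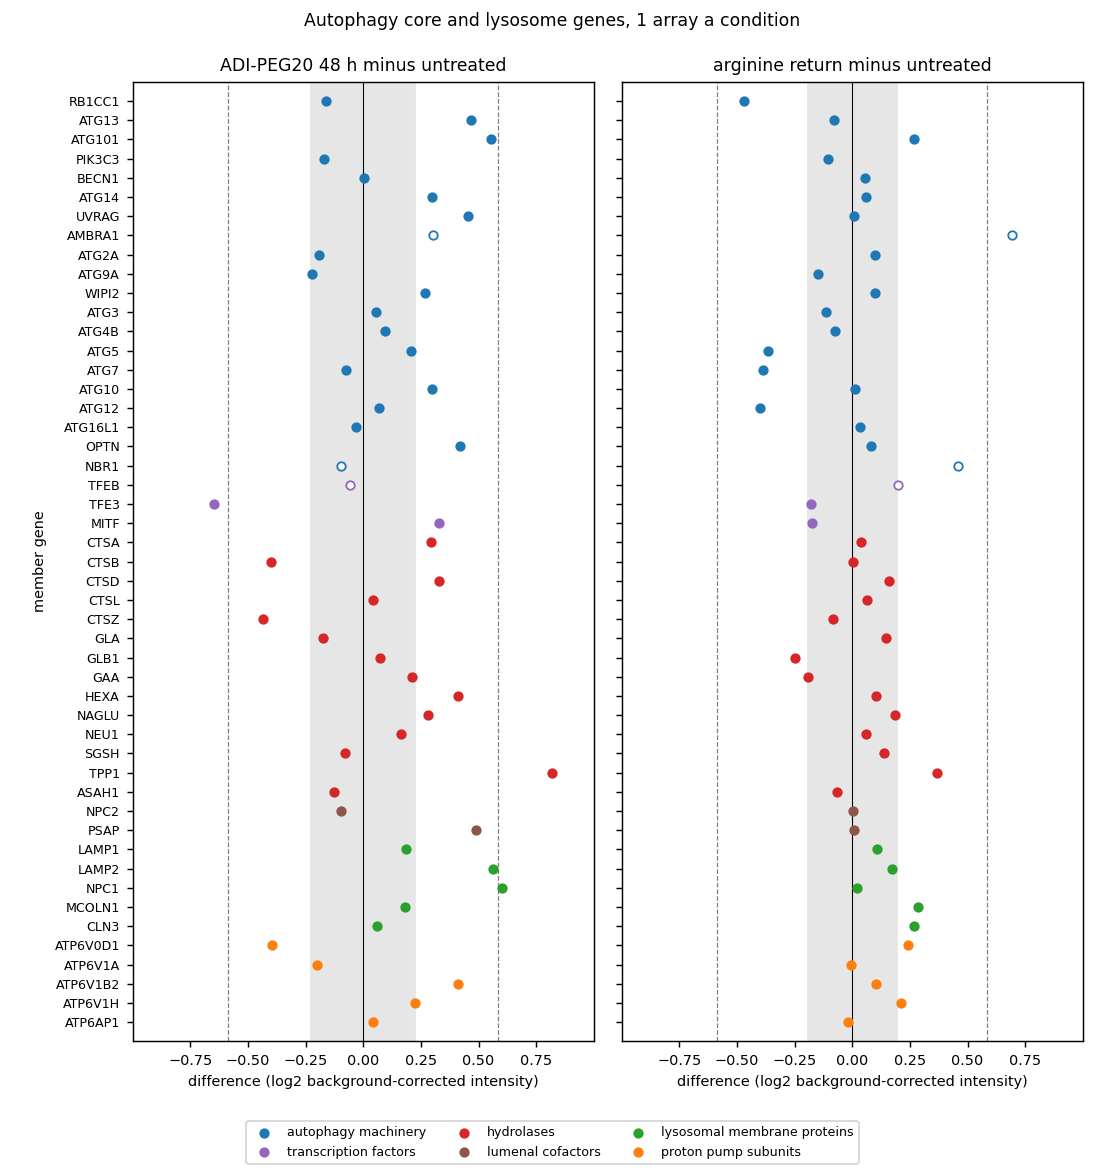
Difference of each of the 49 members (vertical axis) in log2 background-corrected intensity (horizontal axis), for ADI-PEG20 minus untreated on the left and arginine minus untreated on the right, 1 array a condition. Colours give the role, open circles are members not above background on both arrays, the grey band is the probe error (1 SD) and dashed lines mark 1.5-fold. Under ADI-PEG20 TPP1 at 0.82 and TFE3 at -0.65 lie farthest from 0.

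Among genes of the autophagy machinery the median under ADI-PEG20 was 0.09 over 19 genes (0.06 to 0.16 over the processing alternatives), 13 higher and 6 lower, and none reached 1.5-fold. Of all genes 49.7% were higher and 50.3% lower, and 7.94% and 9.28% passed 1.5-fold. In the initiation complex, ATG101, a stabilising partner of ATG13, had an untreated intensity of 795.0, with 1109 under ADI-PEG20 and 932.6 on the arginine array. It was highest under ADI-PEG20, with a difference of 0.55. ATG13, the adaptor of the ULK kinases, was at 185.1, 209.7 and 181.7 in the same order. These intensities lie close to the background limit, and the difference of 0.47 rests on that correction. RB1CC1, the scaffold of the complex also known as FIP200, was at 548.2, 503.5 and 429.4, lowest on the arginine array, and differed by -0.16 under ADI-PEG20.

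In the lipid kinase complex, which makes phosphatidylinositol 3-phosphate, UVRAG, the subunit of its endosomal form, was at 510.6, 654.8 and 512.6. The ADI-PEG20 array stood above the others, with a difference of 0.45. A dim second probe, at 156.2, 167.7 and 175.4, was highest on the arginine array. ATG14, the subunit of the autophagy-specific form, differed by 0.30. In the core shared by both forms, BECN1 (Beclin 1) was level at 1325, 1327 and 1371. PIK3C3, the catalytic subunit, was at 455.3, 417.8 and 432.1, a difference of -0.17, within the probe error. PIK3R4, a core gene outside the member list, was at 179.6, 203.4 and 194.9. Its difference was 0.49, from intensities close to the background limit. AMBRA1, a regulator of Beclin 1, was at 162.0, 171.6 and 187.3, below the limit in untreated cells and barely above it elsewhere.

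On their brightest probes the conjugation genes lay close to their untreated level under ADI-PEG20. The 7 differences ran from -0.07 for ATG7, the activating enzyme of both systems, to 0.30 for ATG10, which joins ATG12 to ATG5, with a median of 0.07. ATG5 was at 0.21, ATG4B, a protease that trims ATG8 proteins, at 0.09, ATG12 at 0.07, ATG3, which transfers ATG8 to lipid, at 0.05 and ATG16L1 at -0.03. ATG10 was at 314.5, 358.8 and 316.3, highest under ADI-PEG20, and was the only one past 1.2-fold on its brightest probe. Its second probe, at 180.7, 205.3 and 208.0, gave 0.50 and was highest on the arginine array. For ATG3, at 1781, 1846 and 1657, the second probe gave -0.23 from a dim 181.1. The second probe of ATG16L1, at 666.7, 570.6 and 659.4, gave -0.28, beyond the probe error. That of ATG12 gave 0.25 from a dim 212.7. In membrane supply, ATG9A, a lipid scramblase on vesicles, was at 589.2, 522.4 and 543.7, highest in untreated cells, with a difference of -0.22 and of 0.0095 on a second probe. WIPI2, which reads phosphatidylinositol 3-phosphate, was at 244.6, 269.7 and 253.1, a difference of 0.27, and the lipid transfer gene ATG2A was at -0.19. Of the cargo receptors, which tie ubiquitinated cargo to the membrane, OPTN was at 1662, 2182 and 1751, highest under ADI-PEG20 by 0.42. NBR1 was at 151.7, 149.1 and 164.4 and passed the limit only on the arginine array, barely.

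Of the TFE transcription factors, TFE3 was lower and MITF higher under ADI-PEG20 on their brightest probes, and TFEB was not above background. TFE3 was at 355.6 in untreated cells, 270.6 under ADI-PEG20 and 328.0 on the arginine array, lowest under ADI-PEG20 and 1.57-fold lower there than in untreated cells, at -0.65. Only 7.62% of all genes had a lower difference. TFE3 has 1 probe, and its difference was -0.39 without background correction. MITF, dim at 252.8, 286.2 and 237.7, had a difference of 0.33, while its deposited intensity was 13.2% higher than untreated. Its other probes, of which there were 2, stayed below background on every array. TFEB was at 137.1, 134.4 and 144.4 and was not above background on any array, so nothing can be said of its transcript from its only probe. These factors are known to be controlled by phosphorylation and location, which RNA arrays do not measure.

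The TFE factors are known to bind an E-box within a longer element called CLEAR, and the members' promoters were searched for both. The windows, from RefSeq on GRCh38.p14, run from 250 bases before to 50 after a start site and were at hand for 37 of the 49 members. The motifs were the E-box CACGTG and a CLEAR-type element, which is that E-box with GT before and AC after it. Both are palindromes, so 1 search covers both strands. Some genes have several windows, and the 37 members had 48. An E-box lay in at least 1 window of 10 of the 37 members (27.0%) and of 8.77% of all 27305 genes, or in 11 of the 48 windows (22.9%) and in 7.26% of all 35116. The CLEAR-type element lay in windows of GAA and MCOLN1, in 0.421% of all genes and in 0.353% of all windows. GAA and MCOLN1 are printed whole for this element, and LAMP1 for its 6 E-boxes, with each match in capitals. They lie on the forward strand, at chr17:80101331-80101630, chr19:7522374-7522673 and chr13:113296989-113297288.
GAA promoter: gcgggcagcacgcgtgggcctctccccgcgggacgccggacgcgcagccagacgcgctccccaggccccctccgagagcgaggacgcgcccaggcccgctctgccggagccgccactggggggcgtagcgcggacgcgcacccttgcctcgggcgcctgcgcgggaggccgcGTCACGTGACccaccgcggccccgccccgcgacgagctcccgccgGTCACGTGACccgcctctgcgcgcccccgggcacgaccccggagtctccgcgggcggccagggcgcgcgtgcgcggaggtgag
MCOLN1 promoter: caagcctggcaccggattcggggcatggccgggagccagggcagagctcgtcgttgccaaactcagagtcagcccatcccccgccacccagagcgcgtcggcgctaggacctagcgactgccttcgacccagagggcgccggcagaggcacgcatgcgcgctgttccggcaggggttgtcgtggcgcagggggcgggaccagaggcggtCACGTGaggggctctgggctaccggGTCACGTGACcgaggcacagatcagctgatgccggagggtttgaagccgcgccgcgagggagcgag
LAMP1 promoter: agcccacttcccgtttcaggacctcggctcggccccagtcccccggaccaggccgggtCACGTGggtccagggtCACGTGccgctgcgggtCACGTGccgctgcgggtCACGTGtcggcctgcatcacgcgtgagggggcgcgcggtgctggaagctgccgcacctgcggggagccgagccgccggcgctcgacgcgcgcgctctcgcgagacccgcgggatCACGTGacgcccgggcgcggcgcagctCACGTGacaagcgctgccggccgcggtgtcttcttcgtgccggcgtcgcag
Stretches of 46 bases around the E-box follow for CTSD, ATG14 and CTSA, the members with an E-box that were highest under ADI-PEG20, and for ATP6V0D1, the only one that was lower. CTSD's lies at chr11:1763949-1763994 (reverse strand), CTSA's at chr20:45891273-45891318 (forward), ATG14's at chr14:55411826-55411871 (reverse) and ATP6V0D1's at chr16:67481191-67481236 (reverse). Only the first of the 2 E-boxes of CTSA is in capitals.
CTSD E-box: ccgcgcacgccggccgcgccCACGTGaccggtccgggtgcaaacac
CTSA E-box: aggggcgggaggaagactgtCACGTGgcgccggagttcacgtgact
ATG14 E-box: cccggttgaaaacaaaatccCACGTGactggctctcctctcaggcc
ATP6V0D1 E-box: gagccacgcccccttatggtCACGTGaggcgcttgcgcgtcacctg

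Under ADI-PEG20 the 10 members with an E-box (ATG14, ATG3, CTSA, CTSD, GAA, NEU1, LAMP1, MCOLN1, CLN3 and ATP6V0D1) had a median difference of 0.18, 9 of them higher, and a highest value of 0.33. The 25 measured members with a window but no E-box had a median of 0.07, with 16 higher and 9 lower, and held both the highest value of the list, TPP1, and the lowest, TFE3. Over all genes the median was -0.0029, with 49.7% higher. On the arginine array the medians of the 2 groups of members were 0.08 and 0.0081 against untreated cells. Against the ADI-PEG20 array they were alike, at -0.14 and -0.12. Genes outside the list were not split by E-box, and whether the E-box bears on the differences was not tested. A match says only that the letters are present in the window.

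Lysosomal hydrolases had a median difference of 0.12 under ADI-PEG20, with 9 of 14 higher and 5 lower, beside 49.7% and 50.3% of all genes. CTSL, GLA, GLB1, GAA, NEU1, SGSH and ASAH1 lay within the probe error of 0.22 on their brightest probes. TPP1, the tripeptidyl peptidase lost in a form of neuronal ceroid lipofuscinosis, was at 1374 in untreated cells, 2328 under ADI-PEG20 and 1736 on the arginine array. It was highest under ADI-PEG20 and between the others on the arginine array. The difference of 0.82, or 1.76-fold, was the highest of all members, and 96.7% of all genes lay below it. The gene has only 1 probe, so no second probe checks it.

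The cathepsins, lysosomal proteases, split in direction. CTSD, an aspartic protease, was at 4250, 5313 and 4733, highest under ADI-PEG20 by 0.33. CTSA, the protective protein of beta-galactosidase and neuraminidase, was at 1452, 1753 and 1488, a difference of 0.29. CTSL, a cysteine protease, was level at 0.04, with its other probes at -0.08 and -0.10. By contrast CTSZ, a carboxypeptidase, was at 733.3, 574.3 and 699.6, lowest under ADI-PEG20 at -0.43. CTSB, a cysteine protease, was at 959.6, 757.2 and 962.0, also lowest there at -0.40. A second probe of CTSB was at 569.2, 580.3 and 595.5 and gave 0.04, so the 2 probes differed by more than the probe error.

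Among enzymes that take apart sugars and lipids, HEXA, a hexosaminidase subunit that acts on gangliosides, was at 314.0, 377.6 and 328.5, a difference of 0.41. NAGLU, which acts on heparan sulfate, differed by 0.28, the acid glucosidase gene GAA by 0.21 and the sialidase gene NEU1 by 0.16. GLB1, beta-galactosidase, was at 0.07. The lower ones were SGSH, a heparan sulfatase, at -0.08, the acid ceramidase gene ASAH1 at -0.13 and the alpha-galactosidase gene GLA at -0.17. All of these lay within 1.5-fold of their untreated level. The second probe of GAA gave 0.64 from an intensity of 172.7, near the background limit.

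PSAP, the precursor of the saposins that help sphingolipid hydrolases, was at 9905 in untreated cells, 13860 under ADI-PEG20 and 9951 on the arginine array. Only the ADI-PEG20 array stood apart, by 0.49, and the second probe gave 9254, 14000 and 10315, a difference of 0.60. The cofactor NPC2, which carries cholesterol in the lumen, was at 22348, 20924 and 22395, a difference of -0.10.

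All 5 genes of lysosomal membrane proteins were higher under ADI-PEG20, with a median of 0.19, beside 49.7% of all genes higher. On their brightest probes LAMP1, MCOLN1 and CLN3 lay within the probe error of 0.22, and LAMP2 depended on the probe. NPC1, which takes cholesterol from NPC2 and exports it from the lysosome, was at 3378, 5056 and 3420. It was higher under ADI-PEG20 by 0.60, or 1.52-fold, and the untreated and arginine arrays were level. LAMP2, a major glycoprotein of the membrane, one form of which is the receptor of chaperone-mediated autophagy, was at 3174, 4635 and 3563, a difference of 0.56. LAMP1, its relative, was at 5456, 6189 and 5864, a difference of 0.19. MCOLN1, a calcium channel that acts upstream of TFEB, differed by 0.18. CLN3, a gene of ceroid lipofuscinosis, was at 476.6, 491.3 and 549.5, highest on the arginine array, and differed by 0.06, or 0.49 on its second probe.

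**Figure D2:**
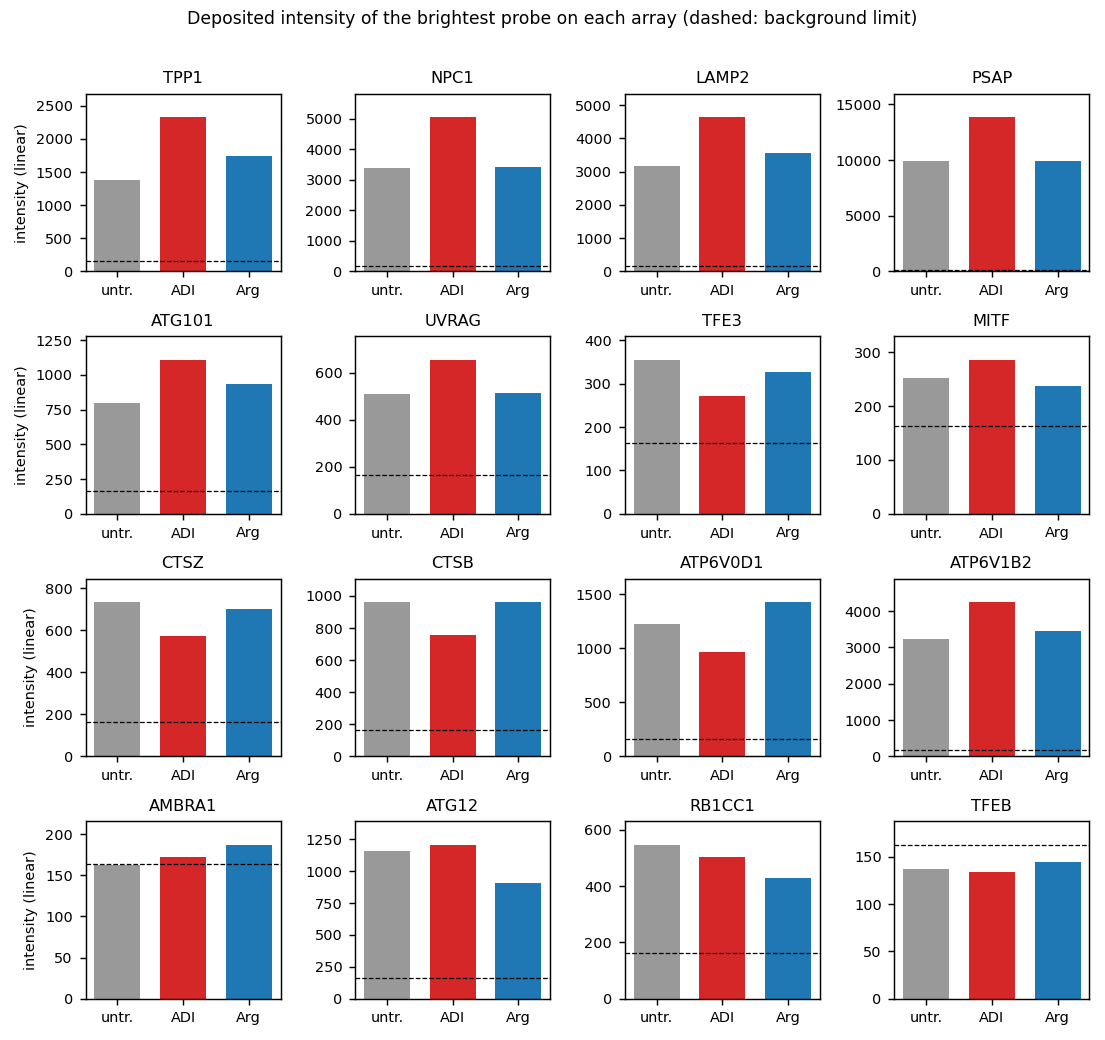
Deposited linear intensity (vertical axes, from 0) of the brightest probe of 16 members on the untreated, ADI-PEG20 (ADI) and arginine (Arg) arrays, 1 bar an array, with no error bars since each condition had 1 array; the dashed line is the background limit of 163.1. TPP1, NPC1, LAMP2 and PSAP are highest and TFE3, CTSZ, CTSB and ATP6V0D1 lowest under ADI-PEG20, and TFEB is under the limit on every array.

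LAMP2 had 6 probes, all above background, and under ADI-PEG20 they spread more widely than the measured probes of any other member. They gave 0.56, 0.43, 0.42, 0.15, 0.04 and -0.16. The platform lists these probes under more than 1 transcript of the gene, and whether forms of LAMP2 differ was not tested. The value of LAMP2 thus depends on the probe by more than the probe error. Of 13 members with several probes above background on both arrays, 4 (LAMP2, CTSB, ATG3 and ATG9A) had probes of opposite sign that lay farther apart than the probe error. That error is of 1 probe. The gaps of ATG3, 0.29, and ATG9A, 0.23, lay within the wider spread of a gap between 2 probes.

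**Figure D3:**
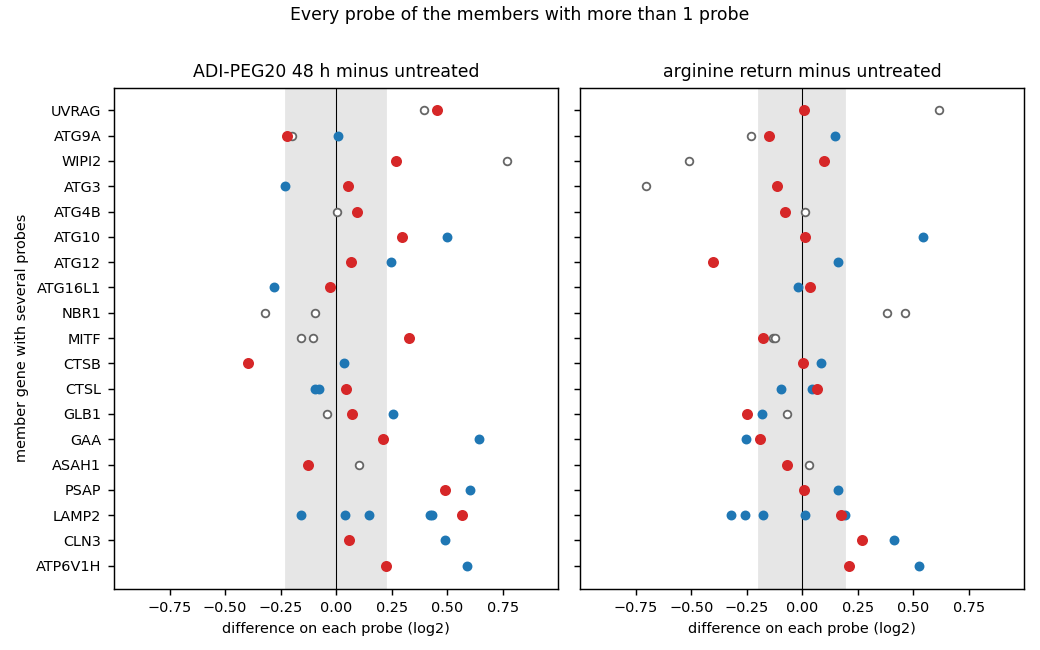
Difference on every probe (horizontal axis, log2) of the 19 members with several probes (vertical axis), for ADI-PEG20 minus untreated and arginine minus untreated. Red is the brightest probe, blue are other probes above background on both arrays, open circles are below background on at least 1 array, and the grey band is the probe error. The 6 probes of LAMP2 run from -0.16 to 0.56 under ADI-PEG20, while both probes of PSAP lie at 0.49 and 0.60.

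The proton pump subunits lay on both sides of their untreated level, with a median of 0.04 over 5 genes. ATP6V1B2, the nucleotide-binding B subunit of the cytosolic part, was at 3224, 4250 and 3457, highest under ADI-PEG20 by 0.41. ATP6V1H, a regulatory subunit, differed by 0.22 and the accessory gene ATP6AP1 by 0.04. ATP6V1A, the catalytic A subunit, was at 2735, 2396 and 2722, a difference of -0.20. ATP6V0D1, of the membrane part, was at 1227, 962.8 and 1428, lowest under ADI-PEG20 at -0.39. The A and B subunits, which act as a ring, thus lay on opposite sides, but the value of ATP6V1A is within the probe error.

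The lysosome genes together (hydrolases, cofactors, membrane proteins and pump) had a median of 0.17 over 26 genes with 18 higher, beside 0.09 with 13 of 19 higher for the autophagy machinery. Of all genes 49.7% were higher.

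**Figure D4:**
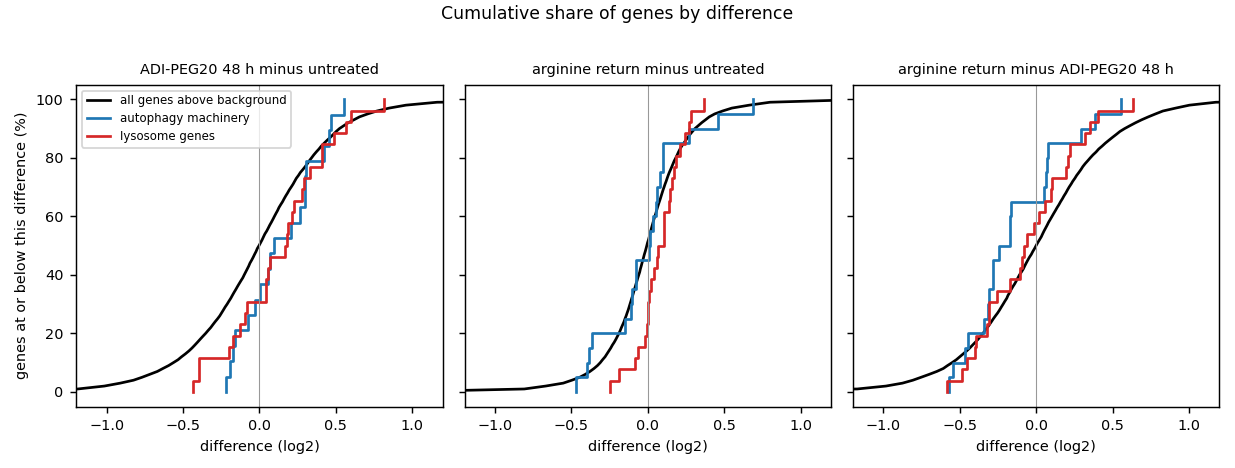
Cumulative share of genes (vertical axis, %) at or below a difference (horizontal axis, log2) in each of the 3 comparisons, for all genes above background (black), the autophagy machinery (blue) and the lysosome genes (red); the comparisons share arrays. Under ADI-PEG20 minus untreated both member curves lie to the right of the black curve over its lower end, and cross it toward its upper end. The machinery ends at 0.55 and the lysosome genes at 0.82, while the black curve goes on.

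Other genes of the pathway were taken from a separate list of 98, of which 88 had a probe of that symbol and 84 were above background in this comparison. Their median was 0.12, with 52 higher (61.9%) and 32 lower (38.1%), beside 49.7% and 50.3% of all genes. At 1.5-fold 5 were higher (5.95%, beside 7.94% of all genes) and 4 lower (4.76%, beside 9.28%). Both counts lie under the background. The higher ones were GABARAPL1, an ATG8 family gene, at 0.99, from 396.2 to 665.9; DPP7, a dipeptidyl peptidase, at 0.84; WDR45, a relative of WIPI2, at 0.79; CTSO, a cathepsin, at 0.68; and MAP1LC3B, which encodes the ATG8 protein LC3B, at 0.65. The lower ones were ATG2B, the partner of ATG2A, at least 1.56-fold lower on the background-corrected scale, CTSC, the cathepsin that activates granule proteases, at -0.74, the pump subunit gene ATP6V0E2 at -0.64 and TECPR1, a tether of autophagosomes, at -0.62. CTSO (220.1 to 279.8) and TECPR1 (256.7 to 209.2) are dim, and the size of their differences rests in part on the background correction. CTNS, the cystine exporter of the lysosome, was at 0.57, and SMPD1, acid sphingomyelinase, at -0.55. In the pump list ATP6V0A2 and TCIRG1, alternative a subunits of the membrane part, were at 0.54 and -0.49. They were opposite in sign, as were ATP6V1B2 and ATP6V0D1 among the members.

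The arginine array was compared with the untreated one to see which genes differed. Of 48 members, 31 were higher and 17 lower, beside 48.7% and 51.3% of all genes, and the median was 0.04 against -0.0067 over 11084 genes. Lysosomal membrane proteins had a median of 0.17, all 5 higher, proton pump subunits 0.10, hydrolases 0.06 and the autophagy machinery 0.010, a median whose sign varied with the processing, from -0.03 to 0.03. The median of the membrane proteins is the value of LAMP2, whose 6 probes gave 0.19, 0.17, 0.01, -0.18, -0.26 and -0.32, with opposite signs beyond the probe error. With the mean over probes that median was 0.11. AMBRA1 alone was past 1.5-fold, at 0.69, beside 2.66% of all genes upward and 2.69% downward. Its intensities of 162.0 and 187.3 lie at the background limit, and the size rests on the correction there: it was 0.42 with an offset of 50 and 0.21 without background correction.

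No member differed by 2-fold, beside 0.37% of all genes upward and 0.334% downward. Past 1.2-fold, 6 members were higher and 4 lower, beside 12.9% and 13.4% of all genes. The 6 were AMBRA1, NBR1, TPP1 at 0.37, MCOLN1 at 0.29, CLN3 at 0.27 and ATG101 at 0.27. NBR1 was below the limit in untreated cells and its bound was 1.03-fold. The 4 lower ones all belong to the autophagy machinery: RB1CC1 at -0.47, ATG12 at -0.40, ATG7 at -0.39 and ATG5 at -0.37. So do 3 of the 6 higher ones, AMBRA1, NBR1 and ATG101. Of the 20 machinery genes 15% were thus higher and 20% lower, beside the same 12.9% and 13.4% of all genes. ATG12 was at 1160 in untreated cells, 1209 under ADI-PEG20 and 907.7 on the arginine array, apart from the others there. ATG7 was at 437.1, 421.4 and 362.8, and ATG5 at 238.2, 256.3 and 211.9. For each of these 4 the arginine array was the lowest of the 3. ATG5 is dim, and the size of its difference rests in part on the background correction. The second probe of ATG12, at 212.7, 229.9 and 223.4, gave 0.16 against untreated, so the lower value of ATG12 was seen on 1 of its 2 probes. RB1CC1, ATG7 and ATG5 had 1 probe each. MCOLN1, which has 1 probe, was higher on the arginine array than on either other. CLN3 was so on its brightest probe only: the second, at 261.6, 318.1 and 308.3, was highest under ADI-PEG20. The hydrolases ranged from -0.25 for GLB1, at 3029, 3178 and 2569, to 0.37 for TPP1. Of these 14, 10 were higher than untreated, beside 48.7% of all genes. Of the separate pathway list, whose median was -0.011 over 83 genes, NRBF2, a partner of the lipid kinase complex, was past 1.5-fold upward, at 0.68. GABARAP, an ATG8 family gene, was at -0.77, and 2 dim genes, the sialin gene SLC17A5 and the kinase gene ULK2, also passed on their measured values, with bounds of 1.39-fold and 1.37-fold lower.

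Set directly against the ADI-PEG20 array, the arginine array had 19 members higher and 29 lower, where 49.9% and 50.1% of all genes were, and a median of -0.14 over 48, or -0.096 without background correction. This comparison shares an array with each of the others, so its values are not separate evidence. ATP6V0D1 alone passed 1.5-fold, at 0.63 or 1.55-fold higher, and no member was that much lower, beside 9.88% and 8.92% of all genes. No member passed 2-fold, beside 2.04% and 1.88%. At 1.2-fold 8 members were higher and 18 lower, beside 26.2% and 26.3%. NPC1 at -0.58, ATG5 at -0.57 and ATG13 at -0.55 were the lowest on the background-corrected scale. ATG5 (256.3 to 211.9) and ATG13 (209.7 to 181.7) are dim, and the size and rank of their differences rest on that correction. In deposited intensity both fell by a smaller share than, among others, PSAP (13860 to 9951) and ATG12 (1209 to 907.7). UVRAG at -0.45, ATG10 at -0.28 and CLN3 at 0.21 had a second probe of opposite sign, at 0.22, 0.05 and -0.07, apart by more than the probe error. The gap of CLN3, 0.28, lay within the wider spread of a gap between 2 probes. The 7 conjugation genes had a median of -0.28, 6 of them lower, and the 3 initiation genes a median of -0.31, all lower. For TPP1 the difference was -0.45, and the arginine array stood 0.37 above the untreated one. For PSAP, at -0.48, and NPC1 the arginine array stood 0.01 and 0.02 above the untreated one. TFE3 was at 0.47 and MITF at -0.50, opposite in sign, which rests on the same ADI-PEG20 array as before. CTSB and CTSZ, lower under ADI-PEG20, were at 0.40 and 0.35 here. On the separate pathway list the median was -0.17 over 84 genes, with 29 higher and 55 lower. CTSO was lowest at -0.998, then WDR45 at -0.84 and GABARAPL1 at -0.81, and ATP6V0E2 was highest at 0.72. CTSO (279.8 to 200.6) is dim, and the size and rank of its difference rest on the background correction. In deposited intensity it fell by a smaller share than WDR45 (848.2 to 526.5) and GABARAPL1 (665.9 to 432.2).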

How the data were processed

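Biotin-labelled RNA was hybridised to Illumina bead arrays, per the labels' protocols. The values deposited by the authors are linear intensity for 47231 probes on 3 arrays. The submitters' processing notes name GenomeStudio, and how the values were normalized is not given in the sources used here. Their columns share a minimum of 105.8, a maximum of 28717 and a median of 149.3, and are not centred. With 1 colour there is no direction of a ratio to settle. Another deposited table, from before normalization, was left out because its 6 value columns match no single label.

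Intensities were corrected by normexp with the mode (136.9), the SD of its lower side (8.75) and an exponential mean of 425.0, followed by an offset of 16 and log2 (Python 3.11.15, numpy 2.4.6, scipy 1.17.1). The limit for above background was the mode plus 3 SDs. Probes were named through the platform annotation: 30113 with 1 gene, 8 with several and 17110 with none listed. Symbols came through the gene identifier for 30074, the accession for 18 and the platform for 21. A gene was its probe with the highest mean log2 value and entered a comparison if above background on either array. A member below background on 1 array has a bound, written as at least, against the lowest value above background there. Precision is limited by the number of arrays, which allowed no test. Steps were tested on simulated data. Full values went to members past 1.5-fold in any comparison, the highest and lowest of each role, the TFE factors, and members whose probes disagree. Others named, and the counts at 1.2-fold and 1.25-fold, were chosen after values were seen. Members, lists and settings were chosen with earlier results of these data known. Alternatives were no background correction, an offset of 50, a mean over probes, both arrays above background, no filter, a limit of 2 SDs, and median centring.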

Additional observations from a re-analysis of the deposited data

How the results depend on the processing

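Each condition had 1 array, so leaving out a replicate was not done. No paired analysis was possible because each group has 1 array and the labels give no replicate numbers. A count was taken to move when it shifted by over 1.5 times, a single gene when it shifted by more than the probe error, and a median when it shifted by more than that error allows for a median over its genes. Of 147 medians and counts under 7 alternatives, 11 moved, 8 of them counts of 2 or fewer. The median of the members under ADI-PEG20 ran from 0.083 without background correction to 0.18, with 0.093 when dim probes were kept, and for arginine minus ADI-PEG20 it was -0.096 without background correction. For medians over few genes this error is wide, and staying within it shows little. The autophagy machinery for arginine minus untreated ran from -0.03 to 0.03. No member past 1.5-fold changed sign.

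Under ADI-PEG20 minus untreated, without background correction 1 member was at least 1.5-fold higher and 0 were lower, and with an offset of 50 again 0 were lower. TFE3, the only one lower, was at -0.39 without background correction. For arginine minus untreated, 0 members were at least 1.5-fold higher without background correction, with an offset of 50 or with both arrays above background. AMBRA1 was there at 0.21 without correction and 0.42 with the offset of 50. For arginine minus ADI-PEG20, 0 were higher without background correction, and with the mean over probes 2 were at least 1.5-fold lower. The all-gene counts shrink with the same settings: without background correction 244 genes passed 1.5-fold upward and 325 downward under ADI-PEG20, beside 884 and 1034. The number of members higher under ADI-PEG20 ran from 30 with the mean over probes to 32. AMBRA1, NBR1 and ATG13 have signal near the background limit, and ATG5 is dim.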
